A study of Mus musculus with 6 samples.

Results

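The solute carriers are a large group of membrane proteins that move sugars, amino acids, ions, metals, vitamins and nucleotides across the plasma membrane and the membranes of organelles. Their gene symbols begin with Slc, followed by a family number, and most families share a type of substrate. In T cells, carriers for glucose and for large neutral amino acids are known to be raised on activation, and regulatory T cells (Tregs, the Foxp3-expressing CD4 T cells that restrain other T cells) have been linked to them for growth and division in tissues. Here 158 of the 367 Slc rows in a count table of tumor Tregs are described. They were chosen by name (Slc, a family number, letters and a member number) and by a summed raw count of 60 or more over all 6 libraries. That sum takes in both treatments, so the levels of the members are a description and carry no test.

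The Tregs were taken from T11 tumors, which grow from transplanted mouse mammary tumor cells and model triple-negative breast cancer of the claudin-low kind. The hosts were BALB/c mice in which GFP marks cells that express Foxp3. The 3 anti-PD-1 libraries (numbered 4, 5 and 6) came from mice given 200 µg of the antibody J43 intraperitoneally, in 2 injections per week. The 3 untreated libraries (numbered 1, 2 and 3) came from mice given tumor cells alone. Both groups shared the reporter strain, the injection of 10000 T11 cells, collection of tumors at 150 mm2 and a sort of GFP-positive cells to a purity above 90%. The labels give no age, and do not say whether each library came from a separate mouse, so a p-value here sets the difference against the scatter of these 6 libraries, whatever its source.

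Total counts were 5219249, 4766533 and 4836408 in anti-PD-1 libraries 4, 5 and 6, against 6686774, 5470816 and 5825110 in untreated libraries 1, 2 and 3. The Treg list (10 of 10 genes detected, among them Foxp3, Il2ra and Ctla4) summed to 6917 to 7999 CPM (counts scaled to the size of the library) in anti-PD-1 libraries, against 8358 to 9463 CPM in untreated libraries. Its genes did not move together, with 3 of the 10 higher and 7 lower after anti-PD-1 by log2 fold change. Foxp3 had 544, 563 and 462 CPM in anti-PD-1 libraries, against 461, 438 and 454 CPM in untreated libraries. Ctla4 had 1305.3, 1319.5 and 1192.9 CPM in anti-PD-1 libraries, against 1843.4, 1495.1 and 1737.1 CPM in untreated libraries. Macrophage and monocyte genes (9 rows, with C1qa and Ms4a7 at 0 in every library) summed to 8.67 to 14.1 CPM in anti-PD-1 libraries, against 5.73 to 10.3 CPM in untreated libraries. Neutrophil genes (7 rows, 4 of them at 0 in every library, among them S100a9 and Csf3r) summed to 1.52 to 3.92 CPM in anti-PD-1 libraries, against 10.3 to 18.4 CPM in untreated libraries, nearly all of it from Ltf. Tumor cell and fibroblast genes (8 rows, Dcn and Lum at 0) summed to 37.8 to 54.0 CPM in anti-PD-1 libraries, against 27.6 to 53.6 CPM in untreated libraries. CD8 T cell and NK cell genes (6 rows, Klra8 at 0) summed to 21.5 to 58.9 CPM in anti-PD-1 libraries, against 18.8 to 39.9 CPM in untreated libraries, and B cell genes (6 rows) to 5.58 to 29.2 CPM in anti-PD-1 libraries, against 3.53 to 14.4 CPM in untreated libraries. Dendritic cell genes (6 rows) summed to 9.70 to 16.2 CPM in anti-PD-1 libraries, against 5.55 to 16.4 CPM in untreated libraries. Erythroid genes (4 rows) summed to 1.33 to 3.73 CPM in anti-PD-1 libraries, against 0 to 3.76 CPM in untreated libraries. Of 5 endothelial genes, 4 were at 0 in every library. The other, Pecam1, had 83.8 to 123 CPM in anti-PD-1 libraries, against 64.7 to 73.9 CPM in untreated libraries, without overlap. Genes of G2 and mitosis summed to 955 ± 231 CPM after anti-PD-1 and 1524 ± 328 CPM in untreated Tregs. A list of dissociation and early response genes summed to 3868 ± 330 CPM after anti-PD-1 and 2460 ± 141 CPM in untreated Tregs (SD, n = 3 each). It holds heat shock genes beside Fos and Jun, among them Hspa1b at 556 ± 204 CPM after anti-PD-1 and 208 ± 81.9 CPM in untreated Tregs. Neither list's libraries overlapped between groups. The part of these differences in the carrier values was not tested. In sorted bulk RNA, fewer cells of a kind and less RNA per cell cannot be told apart.

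Of the 209 Slc rows left out, 123 had no count in any library and 86 had between 1 and 59. The members nearest the threshold were Slc9b2 with 60 counts and Slc26a11 with 62 counts inside it, and Slc6a8 with 56 counts and Slc16a4 with 52 counts outside it. Members came from 41 of the 48 Slc families in the table. Together they took 0.625%, 0.618% and 0.606% of all counts in the anti-PD-1 libraries, against 0.595%, 0.598% and 0.581% in the untreated libraries. All 3 anti-PD-1 shares lay above the 3 untreated shares, by little. After TMM scaling, their summed level was 6202, 6108 and 6047 CPM in anti-PD-1 libraries, against 6378, 5862 and 5716 CPM in untreated libraries. On that scale the groups overlapped, and untreated library 1 was the highest of the 6. The counts were unevenly spread. Slc38a2 alone held 16.5% of the members' counts, the 10 members with most counts held 40.9% and the 20 with most held 54.8%, and the median member had a summed count of 522.

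Per kb of gene length, the scale on which levels of different genes were compared, Slc38a2 (sodium-coupled uptake of small neutral amino acids such as alanine and glutamine) stood highest, at 208 ± 12.9 CPM per kb after anti-PD-1 and 219.7 ± 62.5 in untreated Tregs. The mitochondrial phosphate carrier Slc25a3 followed, at 132 ± 20.5 CPM per kb after anti-PD-1 and 146 ± 9.98 in untreated Tregs, and the ADP/ATP carrier Slc25a5 at 102 ± 31.0 after anti-PD-1 and 115 ± 16.4 in untreated Tregs (SD, n = 3 each). Next came Slc9a3r1, a scaffold protein that binds carriers and is none itself, then Slc3a2 (the CD98 heavy chain), the bicarbonate carrier Slc4a7, and the second ADP/ATP carrier Slc25a4. The glucose carrier Slc2a1 averaged 34.6 ± 3.68 CPM per kb after anti-PD-1 and 25.6 ± 11.5 in untreated Tregs. In the order of the 30 highest members, the libraries of neighbours were apart at 2 steps, between Slc38a2 and Slc25a3 and between Slc25a5 and Slc9a3r1, and overlapped at every other step.

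**Figure D1:**
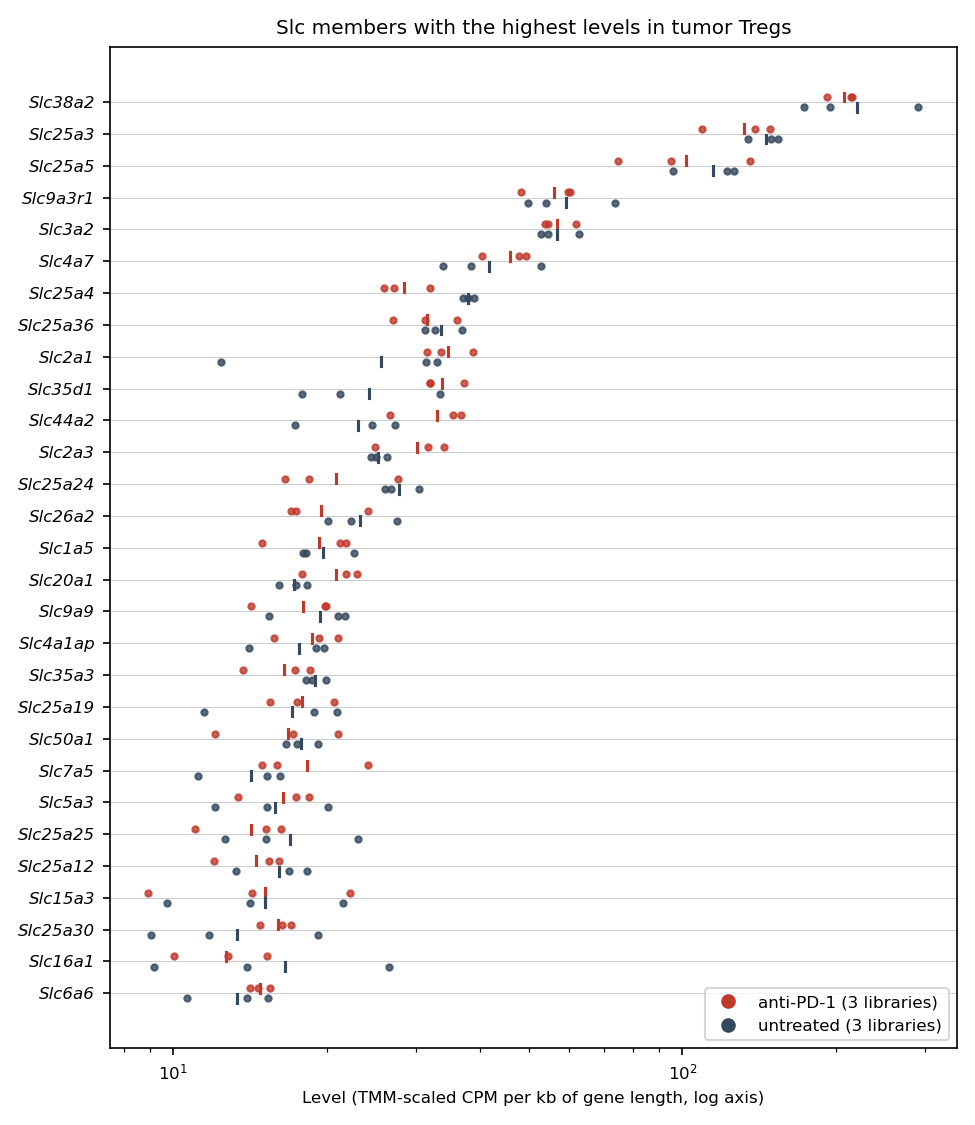
Levels of 29 of the 30 members with the highest mean, in TMM-scaled CPM per kb of gene length on a log axis, with each point 1 library, each short bar a group mean, and the anti-PD-1 libraries drawn above the untreated libraries. Slc38a2, Slc25a3 and Slc25a5 stand apart at the top, and the groups overlap in most members. Untreated library 1 lies far to the left of the others in Slc2a1.

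No member passed the test of anti-PD-1 against untreated. The test was edgeR's quasi-likelihood test, fitted on all 10352 tested genes with Benjamini-Hochberg adjustment, in which 3 genes passed an adjusted p of 0.05 (0.029% of those tested) and the lowest adjusted p of a member was 0.448. DESeq2, which gave no adjusted p to 99 members, and limma-voom also called 0 members. Of the 158 members, 157 were tested. Slc39a2, a zinc carrier, failed the filter on low counts, with 60 of its 79 counts in untreated library 1. At an unadjusted p under 0.05, 7 members were higher after anti-PD-1 and 3 were lower, which is 6.37% of the members against 8.3% of all tested genes (4.23% higher and 4.07% lower). Groups did not overlap in 20 members, 11 with all anti-PD-1 libraries above and 9 with all below, which is 12.7% of the members against 13.6% of all tested genes (7.18% above and 6.44% below). Both shares lay near or under the background. The median log2 fold change was 0.07 over the members, with 89 above 0 and 68 below, and 0.0016 over all tested genes, of which 50.1% lay above 0 and 49.9% below.

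Precision differed with the count. Among the 73 tested members with a summed count of 600 or more, the median SE of the log2 fold change was 0.25, and in 57 of them the 95% interval of the log2 fold change lay within -1 and 1. Among the 84 below 600 counts the median SE was 0.52, and 6 intervals lay within those bounds. In most members below 600 counts, the interval thus took in changes past those bounds. The median log2 fold change was -0.0045 in the members with 600 or more counts and 0.24 in those with fewer. Over all tested genes the same medians were -0.03 (5728 genes) and 0.10 (4624 genes).

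**Figure D2:**
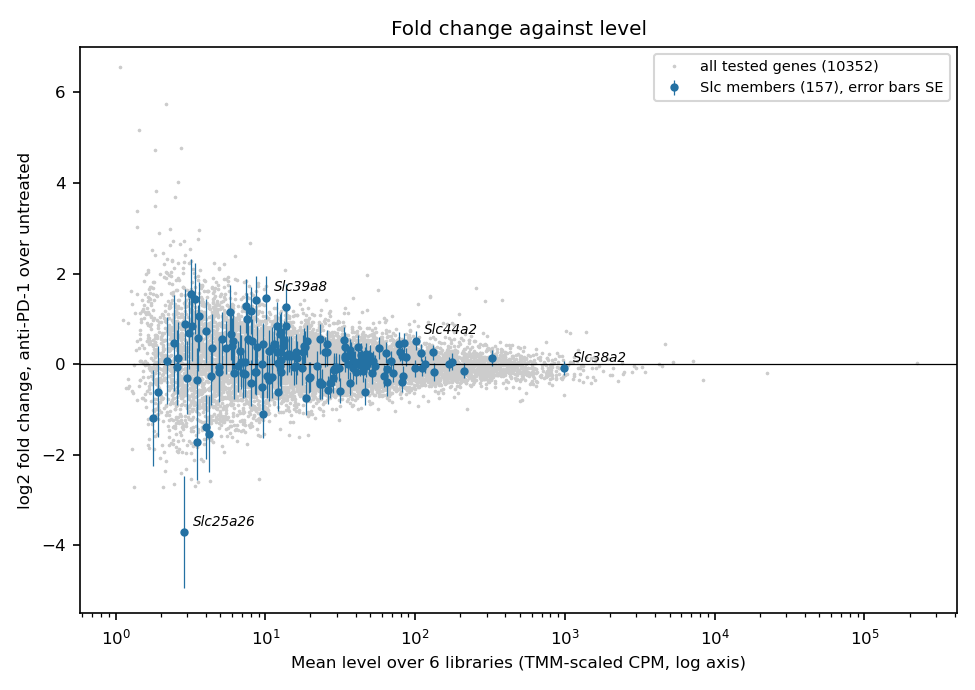
Log2 fold change of anti-PD-1 over untreated (edgeR) against the mean level over the 6 libraries (TMM-scaled CPM, log axis), for all tested genes in grey and the 157 tested members in blue with SEs. Apart from Slc25a26, the lowest of all points, the members lie within the cloud of all genes at their level, with wide errors at low levels, and Slc38a2 at the right lies near 0.

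Untreated library 1 stood apart from the other libraries both over all genes and in the members. In the members it was more often the lowest and less often the highest than over all genes. It was the lowest of the 6 libraries in 52 members, or 33.1% of those tested, against 27.2% of all tested genes, and the highest in 17.8% of the tested members, against 26% of all tested genes. It lay under 0.5 of the lowest other library in 13 members (8.28% of those tested, against 7.77% of all tested genes), among them Slc2a1, Slc29a1, Slc46a3, Slc9a7 and Slc25a1, each with over 300 counts. In 3 members (Slc25a26, Slc25a14 and Slc39a2) it lay above 2 times the highest other library, which is 1.27% of those tested (2 members, without Slc39a2), against 1.2% of all tested genes. The other 5 libraries stood apart by that measure in 0 to 6 members each. Untreated library 1 also had the largest total count, and log2 fold changes without it are given below for the named members in which leaving it out moved the value by over 1.5 times (with 0.3 or more in size in either fit) or across an unadjusted p of 0.05.

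Carriers of sugars and related solutes had 11 members, 5 above 0 and 6 below, with a median log2 fold change of -0.0020. None of the 11 reached an unadjusted p under 0.05, against 8.3% of all tested genes. Slc2a1 (GLUT1, basal glucose uptake) had 86.4, 99.6 and 81.2 CPM in the anti-PD-1 group (here and below in the order of libraries 4, 5, 6), against 31.9, 84.9 and 80.8 CPM in the untreated group (in the order 1, 2, 3). All anti-PD-1 libraries lay within or just above untreated 2 and 3, and untreated 1 stood alone at the low end. Its log2 fold change was 0.44 ± 0.26 (SE, adjusted p = 0.686, edgeR's quasi-likelihood test), and 0.10 without untreated library 1. Slc2a3 (GLUT3, a glucose carrier of high affinity) had 134, 125 and 98.5 CPM in anti-PD-1 libraries, against 104, 99.2 and 96.8 CPM in untreated libraries, with a log2 fold change of 0.26 ± 0.18 and an overlap in the lowest anti-PD-1 library. Per kb, Slc2a1 stood at 0.989, 1.23 and 1.27 times Slc2a3 in anti-PD-1 libraries, against 0.472, 1.32 and 1.28 times in untreated libraries. Apart from untreated 1, both glucose carriers were thus at similar levels in each library.

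Slc5a3, which takes up myo-inositol, had 190.0, 201 and 146 CPM in anti-PD-1 libraries, against 219, 167 and 131 CPM in untreated libraries, which overlap widely. Its exons share bases with Mrps6 on the same strand, so reads in the shared stretch cannot be assigned to either gene with certainty. Slc50a1 (a sugar carrier of the SWEET family) averaged 17.2 ± 4.62 CPM after anti-PD-1 and 18.2 ± 1.37 CPM in untreated Tregs, and Slc37a2 (a sugar-phosphate exchanger of the endoplasmic reticulum) 9.56 ± 4.95 CPM after anti-PD-1 and 9.46 ± 3.26 CPM in untreated Tregs (SD, n = 3 each). The urate carrier Slc2a9 gave a log2 fold change of -0.30 ± 0.34. The largest difference of the class was in Slc2a8 (GLUT8, an intracellular sugar carrier), with 0.760, 0 and 4.13 CPM in anti-PD-1 libraries, against 4.33, 5.73 and 6.08 CPM in untreated libraries. The groups did not overlap, but the gene had 119 counts in all, and its log2 fold change of -1.72 ± 0.84 did not pass (adjusted p = 0.604, edgeR). Without untreated library 1 it was -1.86, with an unadjusted p of 0.0323 and an adjusted p of 0.579 (edgeR). The related carrier Slc2a6 had 51 counts and was not a member.

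Of 18 amino acid carriers, 11 were above 0 and 7 below, with a median log2 fold change of 0.04. None reached an unadjusted p under 0.05, against 8.3% of all tested genes. In none did the libraries of the groups separate, against 13.6% of all tested genes. In a class this small, both results lie near the shares of all genes. Slc38a2 (chr15:96687392-96699698, minus strand, mm10) had 997, 993 and 891 CPM in anti-PD-1 libraries, against 1346, 803 and 902 CPM in untreated libraries. The untreated libraries held both its highest and its lowest value. Its 95% interval of the log2 fold change ran from -0.42 to 0.25. The related carrier Slc38a1 (glutamine uptake) had 104, 142 and 105 CPM in anti-PD-1 libraries, against 123, 117 and 111 CPM in untreated libraries, with an interval from -0.38 to 0.37. Per kb, Slc38a2 stood at 12.7 to 17.4 times Slc38a1 in anti-PD-1 libraries, against 12.5 to 19.8 times in untreated libraries.

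As the member with the most counts, Slc38a2 is shown with the 250 bases upstream of its RefSeq start (GRCm38.p6, chr15:96699729-96699978, minus strand). Capitals mark CACCC, the core of the CACCC box bound by zinc finger factors of the KLF and SP families, on either strand; 4 matches were found.
Slc38a2: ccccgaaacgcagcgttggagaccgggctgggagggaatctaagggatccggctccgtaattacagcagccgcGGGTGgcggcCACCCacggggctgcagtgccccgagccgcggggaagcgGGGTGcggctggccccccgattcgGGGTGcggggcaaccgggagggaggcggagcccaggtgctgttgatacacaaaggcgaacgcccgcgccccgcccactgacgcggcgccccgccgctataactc
Such a match is a run of letters and no evidence of a bound site. RefSeq windows matched 118 members, with 156 windows, since some genes have several starts. CACCC stood in the 250 upstream bases of 63.5% of the members' windows, against 52.0% of all 32851 windows. The E-box CACGTG stood in 14.1% of the members' windows, against 6.02% of all windows, and the AP-1 site TGANTCA in 5.77%, against 6.75% of all. These shares were not matched for base composition.

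The CD98 complex pairs the heavy chain Slc3a2 with a light chain such as Slc7a5 (LAT1, which brings in leucine and other large neutral amino acids). Slc3a2 had 159, 161 and 183 CPM in anti-PD-1 libraries, against 156, 185 and 161 CPM in untreated libraries, and its interval ran from -0.33 to 0.34 on the log2 scale. Slc7a5 had 56.0, 52.5 and 84.7 CPM in anti-PD-1 libraries, against 57.0, 53.7 and 39.2 CPM in untreated libraries. Its log2 fold change, 0.36 ± 0.24 (SE, adjusted p = 0.731, edgeR), had the lowest p of the class, and the spread came from 1 high anti-PD-1 and 1 low untreated library. Per kb, Slc7a5 stood at 0.321 ± 0.0617 of Slc3a2 after anti-PD-1 and 0.252 ± 0.0521 in untreated Tregs. Slc7a6 (another CD98 light chain, for cationic amino acids and glutamine) averaged 25.1 ± 2.71 CPM after anti-PD-1 and 31.3 ± 14.3 CPM in untreated Tregs (SD, n = 3 each). Its log2 fold change of -0.31 became -0.61 without untreated library 1 (unadjusted p = 0.042, adjusted p = 0.600, edgeR).

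Slc1a5 (ASCT2, exchange of glutamine and other neutral amino acids) had 41.2, 58.5 and 60.3 CPM in anti-PD-1 libraries, against 62.6, 50.3 and 49.7 CPM in untreated libraries, without separation. Slc7a1 (CAT1, arginine and lysine uptake) averaged 70.9 ± 18.1 CPM after anti-PD-1 and 67.1 ± 10.9 CPM in untreated Tregs, and Slc43a2 (LAT4, efflux of branched amino acids and phenylalanine) 86.3 ± 14.1 CPM after anti-PD-1 and 75.8 ± 12.6 CPM in untreated Tregs (SD, n = 3 each). The log2 fold change of Slc43a2 was 0.18, and 0.32 without untreated library 1. The carriers of acidic organelles were lower and less certain. Slc36a1 (proton-coupled efflux of small amino acids from lysosomes) gave a log2 fold change of 0.45 ± 0.44 (0.74 without untreated library 1), its relative Slc36a4 gave -0.61 ± 0.43, and Slc38a7 (lysosomal glutamine and asparagine efflux) gave 1.06 ± 0.76 with 116 counts in all.

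The carboxylate class held 4 members, all of the Slc16 family, with 1 above 0, 3 below and a median log2 fold change of -0.27. Mitochondrial carriers of the Slc25 family were classed apart, whatever their substrate. Slc16a6, a member of the monocarboxylate family (chr11:109450856-109473596, minus strand), had 28.3, 22.6 and 24.8 CPM in anti-PD-1 libraries, against 30.2, 44.2 and 39.9 CPM in untreated libraries. Every anti-PD-1 library lay below the untreated ones, and its log2 fold change was -0.58 ± 0.28 (SE, unadjusted p = 0.0499, adjusted p = 0.597, edgeR). Its exons overlap Arsg on the opposite strand. Slc16a1 (MCT1, proton-coupled lactate and pyruvate transport) had 44.5, 56.6 and 67.7 CPM in anti-PD-1 libraries, against 117, 40.7 and 61.9 CPM in untreated libraries. The single high library was untreated 1, and the log2 fold change of -0.40 ± 0.31 became 0.12 without it. Slc16a3 (MCT4, the lactate exporter of glycolytic cells) averaged 27.4 ± 11.1 CPM after anti-PD-1 and 30.2 ± 7.39 CPM in untreated Tregs, and Slc16a13 had 70 counts in all and a log2 fold change of 0.08, which became -0.54 without untreated library 1.

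Carriers of inorganic ions numbered 19, with 12 above 0 and 7 below and a median log2 fold change of 0.14. None of the 19 reached an unadjusted p under 0.05, against 8.3% of all tested genes. Slc4a7 (NBCn1, sodium-coupled bicarbonate uptake that raises the pH of the cell) was the highest of them, with 354, 365 and 299 CPM in anti-PD-1 libraries, against 389.9, 250.01 and 284 CPM in untreated libraries. The groups overlapped and the 95% interval ran from -0.21 to 0.48 on the log2 scale. Untreated library 1 was the highest of the 6, and without it the log2 fold change of 0.14 became 0.34 (unadjusted p = 0.0241, adjusted p = 0.563, edgeR). Among the sodium-proton exchangers of organelles, Slc9a7 gave 0.84 ± 0.48, with untreated library 1 far below the rest at 2.41 CPM (0.34 without it), and Slc9a9 gave -0.10 ± 0.22 on the log2 scale.

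Among the cation-chloride cotransporters, which set cell volume and chloride, the exporter Slc12a7 (KCC4) averaged 29.5 ± 2.49 CPM after anti-PD-1 and 21.7 ± 7.45 CPM in untreated Tregs, while the importer Slc12a2 (NKCC1) averaged 27.6 ± 15.7 CPM after anti-PD-1 and 30.01 ± 5.65 CPM in untreated Tregs (SD, n = 3 each). The phosphate importer Slc20a1 (PiT1) had 90.8, 95.4 and 74.3 CPM in anti-PD-1 libraries, against 76.0, 67.0 and 72.3 CPM in untreated libraries. Its relative Slc20a2 (PiT2) was far lower, with 4.37, 4.98 and 5.58 CPM in anti-PD-1 libraries, against 1.28, 0.358 and 3.72 CPM in untreated libraries. The groups did not overlap in Slc20a2, and its log2 fold change of 1.45 ± 0.78 did not pass (adjusted p = 0.648, edgeR). The sulfate carrier Slc26a2 averaged 75.4 ± 15.5 CPM after anti-PD-1 and 90.0 ± 14.5 CPM in untreated Tregs. Slc8a1, the sodium-calcium exchanger, had 2 counts and was not a member.

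Metal and heme carriers numbered 24, of which 23 were tested, 13 above 0 and 10 below, with a median log2 fold change of 0.14. They held 3 of the 10 members at an unadjusted p under 0.05, with 2 higher and 1 lower after anti-PD-1. That is 13.04% of the tested members of the class, against 8.3% of all tested genes. All 3 were of the zinc carrier families Slc30 and Slc39, to which most members of the class belong. Slc39a8 (ZIP8, which brings zinc and manganese into the cytosol; chr3:135825491-135888572, plus strand) had the lowest p of all members. It had 19.6, 13.5 and 11.2 CPM in anti-PD-1 libraries, against 4.49, 5.91 and 5.75 CPM in untreated libraries. Each anti-PD-1 library lay above every untreated library. The log2 fold change was 1.47 ± 0.48 (SE, 95% interval 0.48 to 2.46, unadjusted p = 0.00553, adjusted p = 0.448, edgeR's quasi-likelihood test), from 317 counts in all. The unadjusted p stayed under 0.05 in the 13 alternatives it entered, and the lowest adjusted p among them was 0.303.

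Zinc leaves the cytosol through Slc30a1 (ZnT1, the exporter of the plasma membrane; chr1:191906781-191913247, plus strand). It had 34.8, 31.7 and 44.8 CPM in anti-PD-1 libraries, against 82.8, 50.9 and 34.5 CPM in untreated libraries, and the lowest untreated library lay among the anti-PD-1 values. The log2 fold change was -0.60 ± 0.29 (unadjusted p = 0.0471, adjusted p = 0.597, edgeR), and -0.20 without untreated library 1. Per kb, Slc30a1 stood at 1.26, 1.67 and 2.85 times Slc39a8 in anti-PD-1 libraries, against 13.1, 6.10 and 4.25 times in untreated libraries. The exporter was above the importer in each library, and the ratio was lower in every anti-PD-1 library than in any untreated one. This pair was singled out after its values were seen, so the ratio has no test. Its divisor is Slc39a8, whose groups were already apart, so the ratio is no separate result.

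Both genes are shown with the 250 bases upstream of the start, from RefSeq (GRCm38.p6), because the metal response element, TGCACNC or TGCGCNC, is the site through which the zinc-sensing factor MTF-1 is known to act on Slc30a1. The windows are chr3:135825029-135825278 (plus strand) and chr1:191906531-191906780 (plus strand), and capitals mark a match on either strand.
Slc39a8: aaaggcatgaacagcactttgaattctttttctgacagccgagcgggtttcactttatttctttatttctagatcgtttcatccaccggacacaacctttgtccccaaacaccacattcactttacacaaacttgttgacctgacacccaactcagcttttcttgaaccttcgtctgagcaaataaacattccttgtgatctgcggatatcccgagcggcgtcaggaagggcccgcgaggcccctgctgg
Slc30a1: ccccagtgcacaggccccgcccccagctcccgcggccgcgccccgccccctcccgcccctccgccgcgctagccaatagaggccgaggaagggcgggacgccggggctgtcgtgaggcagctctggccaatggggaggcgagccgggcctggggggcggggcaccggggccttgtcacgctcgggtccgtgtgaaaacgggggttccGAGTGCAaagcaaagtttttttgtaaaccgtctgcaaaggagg
The window of Slc30a1 held 1 match and that of Slc39a8 held 0. Slc39a8 has 2 such windows. The start of the one shown lies 212 bases upstream of the deposited start of the gene, and the other window, which held 1 match in its 250 upstream bases, is not shown because it runs past the deposited start. TGCACNC stood in the 250 upstream bases of 12.8% of the members' windows, against 10.4% of all windows, and TGCGCNC in 17.3%, against 12.5% of all. Mtf1 itself averaged 18.6 ± 1.28 CPM after anti-PD-1 and 16.8 ± 1.11 CPM in untreated Tregs. Its metallothionein target Mt1 averaged 6.53 ± 1.30 CPM after anti-PD-1 and 9.10 ± 5.54 CPM in untreated Tregs (SD, n = 3 each).

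Slc30a6, which with Slc30a5 loads zinc into the Golgi, had 13.7, 12.4 and 5.37 CPM in anti-PD-1 libraries, against 0.963, 6.45 and 5.92 CPM in untreated libraries. The groups overlapped in the lowest anti-PD-1 library, and the log2 fold change of 1.28 ± 0.59 (unadjusted p = 0.0418, adjusted p = 0.580, edgeR) became 0.77 without untreated library 1. Its partner Slc30a5 averaged 40.1 ± 2.29 CPM after anti-PD-1 and 39.1 ± 7.19 CPM in untreated Tregs. Slc30a7, another zinc carrier of the Golgi, averaged 47.0 ± 13.8 CPM after anti-PD-1 and 36.7 ± 8.71 CPM in untreated Tregs, with a log2 fold change of 0.37 (0.20 without untreated library 1). Of the other zinc importers, Slc39a6 gave 0.14 ± 0.24, Slc39a10 gave -0.19 ± 0.26 (-0.41 without untreated library 1) and Slc39a1 gave -0.43 ± 0.33 on the log2 scale. The magnesium carrier Slc41a1 was the highest of the class per kb, with 66.9, 69.7 and 71.0 CPM in anti-PD-1 libraries, against 73.8, 55.3 and 43.9 CPM in untreated libraries. Untreated library 1 was the highest of the 6, and the log2 fold change of 0.26 became 0.48 without it (unadjusted p = 0.0378, adjusted p = 0.593, edgeR). The iron importer Slc11a2 (DMT1) had 127 counts in all and a log2 fold change of 0.73 ± 0.71 (0.47 without untreated library 1).

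**Figure D3:**
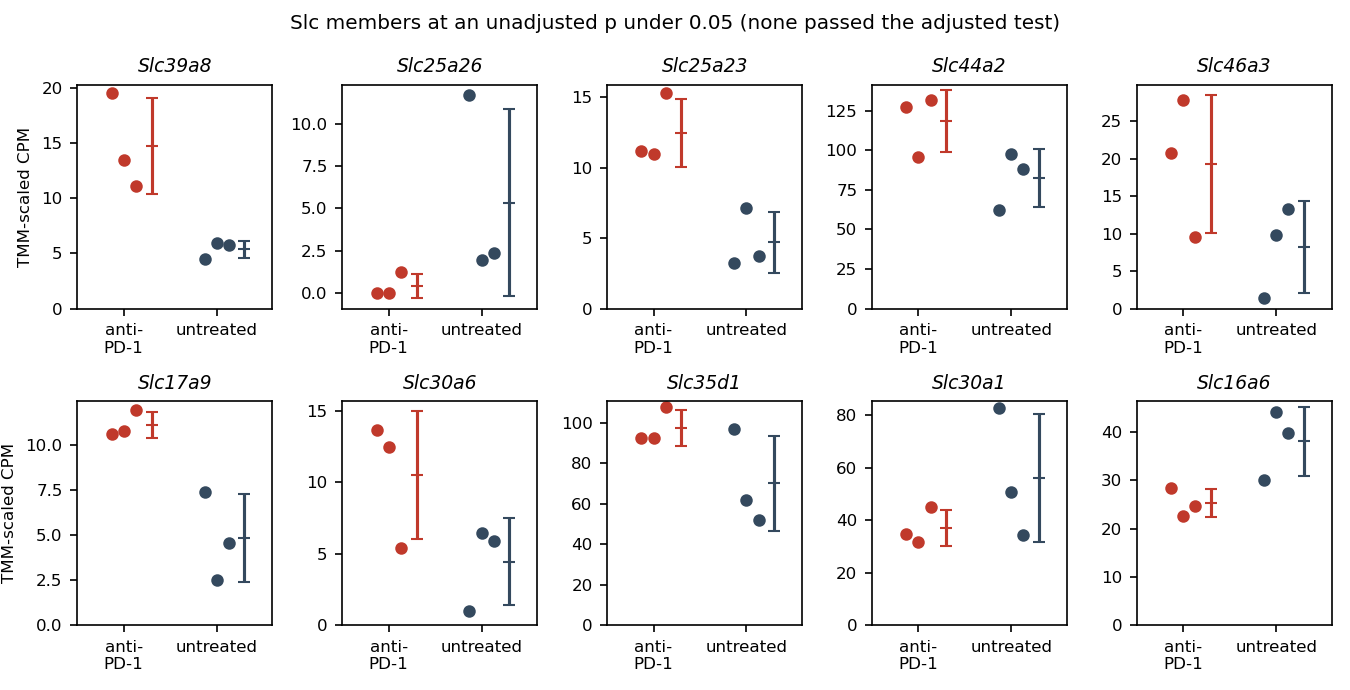
TMM-scaled CPM of the 10 members at an unadjusted p under 0.05, with each point 1 library and, beside the points, the mean and SD of each group (n = 3). The groups separate in Slc39a8, Slc25a26, Slc25a23, Slc17a9 and Slc16a6 and overlap in the other 5, and none of the 10 passed the adjusted test.

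The mitochondrial carriers of the Slc25 family, which exchange nucleotides, phosphate, metabolites and cofactors across the inner membrane, were the largest class. Of 35 members, 17 were above 0 and 18 below, with a median log2 fold change of -0.02. The 2 highest took part in ATP synthesis. Slc25a3 had 165, 210.3 and 225 CPM in anti-PD-1 libraries, against 232, 226 and 204 CPM in untreated libraries, with an interval from -0.48 to 0.19. Slc25a5 had 92.3, 118 and 168 CPM in anti-PD-1 libraries, against 119, 151 and 156 CPM in untreated libraries. Its paralogue Slc25a4 had 28.7, 30.1 and 35.3 CPM in anti-PD-1 libraries, against 41.1, 41.9 and 43.1 CPM in untreated libraries. All anti-PD-1 libraries lay below the untreated ones, and the log2 fold change was -0.42 ± 0.25 (adjusted p = 0.692, edgeR). Per kb, Slc25a5 stood at 3.54 ± 0.685 times Slc25a4 after anti-PD-1 and 3.02 ± 0.374 times in untreated Tregs (SD, n = 3 each). These paralogues are similar in sequence, and how reads that match both were shared is not given in the sources used here.

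Slc25a26, which brings the methyl donor S-adenosylmethionine into mitochondria (chr6:94500314-94604652, plus strand), had the lowest fold change of any tested gene and of the members. It had 0, 0 and 1.24 CPM in anti-PD-1 libraries, against 11.7, 1.97 and 2.37 CPM in untreated libraries. As raw counts these were 0, 0 and 6 after anti-PD-1, against 73, 11 and 14 in untreated libraries. The log2 fold change was -3.70 ± 1.24 (unadjusted p = 0.00604, adjusted p = 0.448, edgeR), and -2.37 with an unadjusted p of 0.0983 without untreated library 1, where most of its counts lay. Its exons share bases with Lrig1 on the opposite strand, and counting was by strand.

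Slc25a23, a calcium-regulated exchanger of ATP-magnesium for phosphate (chr17:57043711-57059863, minus strand), had 11.2, 10.99 and 15.3 CPM in anti-PD-1 libraries, against 3.21, 7.16 and 3.72 CPM in untreated libraries. No library of one group reached into the other, and the log2 fold change was 1.42 ± 0.52 (unadjusted p = 0.0111, adjusted p = 0.481, edgeR). Of the carriers of pyrimidine nucleotides, Slc25a33 had 6.84, 2.70 and 4.75 CPM in anti-PD-1 libraries, against 0.802, 2.15 and 2.03 CPM in untreated libraries, again apart, with 101 counts in all and a log2 fold change of 1.55 ± 0.77. The more abundant Slc25a36 averaged 96.3 ± 13.9 CPM after anti-PD-1 and 103 ± 8.98 CPM in untreated Tregs (SD, n = 3 each).

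Slc25a20, the carnitine-acylcarnitine carrier through which fatty acids enter mitochondria, had 16.7, 8.71 and 16.3 CPM in anti-PD-1 libraries, against 32.7, 18.3 and 19.1 CPM in untreated libraries. The anti-PD-1 libraries all lay below, and the log2 fold change was -0.75 ± 0.38 (adjusted p = 0.625, edgeR). It was -0.42 without untreated library 1, the highest of the 6 (unadjusted p = 0.282, edgeR). The folate and flavin carrier Slc25a32 gave -0.10 ± 0.28, the glutathione carrier Slc25a39 gave 0.18 ± 0.40, the iron carrier Slc25a37 (mitoferrin 1) gave 0.19 ± 0.43 and Slc25a45 gave 0.36 ± 0.47 on the log2 scale, with overlap of the groups in each. Without untreated library 1, Slc25a39 gave 0.38, Slc25a37 gave 0.36 and Slc25a45 gave 0.08.

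**Figure D4:**
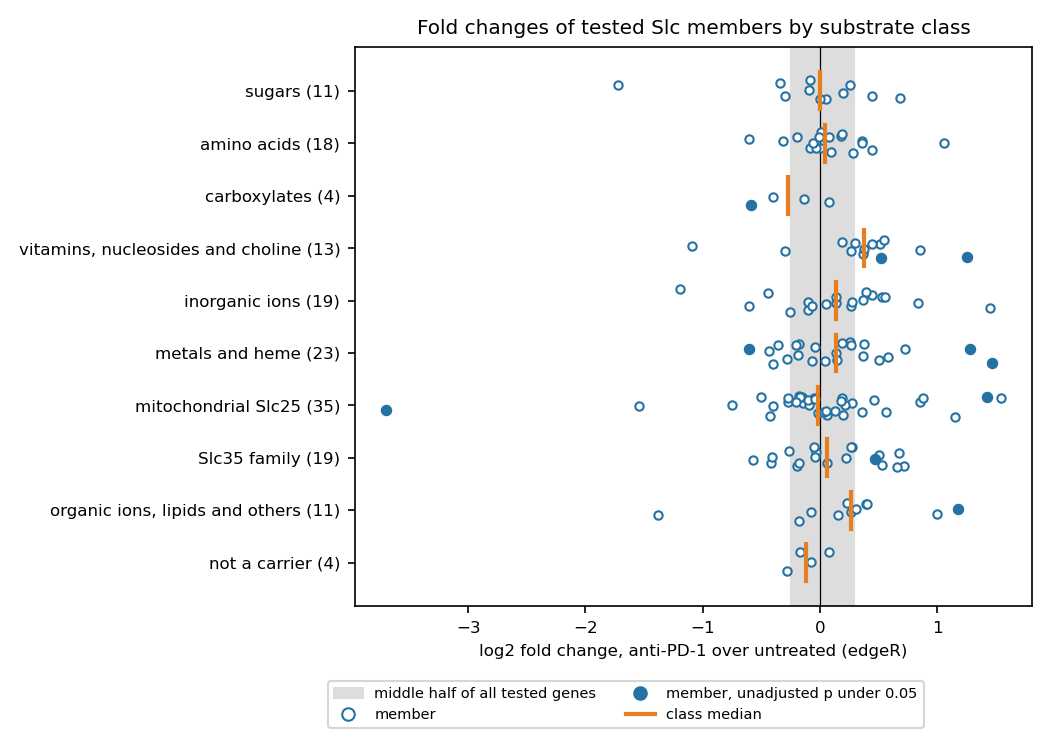
Log2 fold change of anti-PD-1 over untreated (edgeR) for each tested member, by substrate class with the number tested in brackets; filled points have an unadjusted p under 0.05, orange bars are class medians and the grey band is the interquartile range of all tested genes. Most class medians lie inside the band, those of carboxylates and of vitamins, nucleosides and choline lie just outside it, and Slc25a26 lies far to the left.

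The Slc35 family, classed by name, includes nucleotide sugar carriers and others that supply the Golgi and endoplasmic reticulum for glycosylation and sulfation. It had 19 members, 10 above 0 and 9 below, with a median log2 fold change of 0.06. Slc35d1 (UDP-glucuronic acid and UDP-N-acetylgalactosamine into the endoplasmic reticulum; chr4:103171718-103214884, minus strand) was the highest, with 92.3, 92.3 and 108 CPM in anti-PD-1 libraries, against 96.6, 61.6 and 51.7 CPM in untreated libraries. Untreated library 1 fell among the anti-PD-1 values. The log2 fold change was 0.47 ± 0.22 (unadjusted p = 0.0433, adjusted p = 0.583, edgeR), and 0.78 with an adjusted p of 0.159 without untreated library 1. The carriers of the sulfate donor PAPS parted. Slc35b2 had 13.5, 20.3 and 12.8 CPM in anti-PD-1 libraries, against 9.79, 6.45 and 12.7 CPM in untreated libraries. Slc35b3 had 21.1, 17.6 and 24.98 CPM in anti-PD-1 libraries, against 28.2, 30.6 and 35.7 CPM in untreated libraries. Neither gene's groups overlapped, but their log2 fold changes of 0.67 ± 0.43 and -0.57 ± 0.30 did not pass (adjusted p = 0.710 and 0.644, edgeR). Without untreated library 1, Slc35b3 gave -0.65, with an unadjusted p of 0.0413 and an adjusted p of 0.600 (edgeR). Slc35a3 (UDP-N-acetylglucosamine) averaged 66.5 ± 10.1 CPM after anti-PD-1 and 76.3 ± 3.49 CPM in untreated Tregs, the GDP-fucose carrier Slc35c1 15.8 ± 5.03 CPM after anti-PD-1 and 9.79 ± 3.92 CPM in untreated Tregs, and Slc35b1 (ATP into the endoplasmic reticulum) 15.8 ± 3.46 CPM after anti-PD-1 and 10.997 ± 4.77 CPM in untreated Tregs (SD, n = 3 each). The log2 fold change of Slc35c1 was 0.71 (0.43 without untreated library 1) and that of Slc35b1 was 0.53 (0.28 without it).

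Carriers of vitamins, nucleosides and choline leaned highest of the classes, with 11 of 13 members above 0 and a median log2 fold change of 0.38, although none passed the adjusted test. Their summed level was 365, 294 and 371 CPM in anti-PD-1 libraries, against 203, 299 and 281 CPM in untreated libraries. The groups overlapped, and untreated library 1 was the lowest. Within a library, its members lay at a median log2 deviation of -0.52 from their means in untreated 1, against -0.03 to 0.38 in the other 5 libraries. Without untreated library 1 the median log2 fold change of the class was 0.35. It ran from 0.29 to 0.57 with each library left out in turn. Slc44a2 (a choline transporter-like protein, chr9:21320719-21355028, plus strand) had 127, 95.8 and 132 CPM in anti-PD-1 libraries, against 62.4, 97.8 and 88.1 CPM in untreated libraries. Its groups overlapped by 1 library each, and its log2 fold change was 0.52 ± 0.20 (unadjusted p = 0.0170, adjusted p = 0.521, edgeR), and 0.35 without untreated library 1 (unadjusted p = 0.0742, edgeR). Slc46a3, a carrier of lysosomes (chr5:147878441-147894802, minus strand), had 20.7, 27.8 and 9.50 CPM in anti-PD-1 libraries, against 1.44, 9.85 and 13.4 CPM in untreated libraries, a log2 fold change of 1.26 ± 0.51 that became 0.73 without untreated library 1 (unadjusted p = 0.0216 and, without it, 0.096, edgeR).

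Nucleoside carriers showed the same low library. Slc29a1 (ENT1, the equilibrative nucleoside carrier, also the route of adenosine) had 11.02, 13.5 and 21.5 CPM in anti-PD-1 libraries, against 0.963, 13.1 and 11.8 CPM in untreated libraries. The concentrative carrier Slc28a2 had 47.3, 23.6 and 43.4 CPM in anti-PD-1 libraries, against 12.5, 38.9 and 38.5 CPM in untreated libraries. In both genes the groups overlapped, with all 6 libraries. Without that library, the log2 fold change of 0.85 in Slc29a1 became 0.29, and that of 0.37 in Slc28a2 became -0.02. Choline carrier Slc44a1 averaged 22.3 ± 5.47 CPM after anti-PD-1 and 15.7 ± 3.86 CPM in untreated Tregs, the vitamin C carrier Slc23a2 53.0 ± 6.45 CPM after anti-PD-1 and 46.6 ± 10.9 CPM in untreated Tregs, and the reduced folate carrier Slc19a1 9.14 ± 4.61 CPM after anti-PD-1 and 6.23 ± 2.61 CPM in untreated Tregs (SD, n = 3 each). The riboflavin carrier Slc52a3 ran the other way, with 5.89, 8.09 and 4.34 CPM in anti-PD-1 libraries, against 16.7, 17.0 and 5.41 CPM in untreated libraries, and a log2 fold change of -1.09 ± 0.53 (adjusted p = 0.597, edgeR).

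The remaining carriers, of organic ions, lipids and other solutes, had 11 members, 8 above 0 and 3 below, with a median log2 fold change of 0.27. Their summed level was 276, 293 and 279 CPM in anti-PD-1 libraries, against 219, 246 and 270 CPM in untreated libraries. The groups did not overlap, by a narrow gap from 270 to 276 CPM, while the sums of all other classes overlapped. Among single genes, 13.6% of all tested had groups that did not overlap. Slc17a9 (VNUT, which loads ATP into vesicles for release; chr2:180725339-180742278, plus strand) had 10.6, 10.8 and 11.98 CPM in anti-PD-1 libraries, against 7.38, 2.51 and 4.56 CPM in untreated libraries. The anti-PD-1 libraries were nearly equal and all above, with a log2 fold change of 1.18 ± 0.52 (unadjusted p = 0.0339, adjusted p = 0.568, edgeR). The taurine carrier Slc6a6 was the highest of them, at 91.1 ± 4.15 CPM after anti-PD-1 and 82.1 ± 14.9 CPM in untreated Tregs (SD, n = 3 each). Slc22a15, of the organic ion family, had 42.6, 41.5 and 37.8 CPM in anti-PD-1 libraries, against 30.6, 32.1 and 35.8 CPM in untreated libraries, apart by a small margin (log2 fold change 0.31 ± 0.25).

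Among carriers linked to lipids, the carnitine importer Slc22a5 gave a log2 fold change of 1.00 ± 0.56, while the fatty acid transport protein Slc27a1 had 2.85, 1.24 and 2.48 CPM in anti-PD-1 libraries, against 7.38, 6.81 and 3.21 CPM in untreated libraries, a log2 fold change of -1.38 ± 0.71 (adjusted p = 0.628, edgeR). Its relative Slc27a4 gave 0.40 ± 0.61 (0.26 without untreated library 1). The acetyl-CoA carrier Slc33a1 gave -0.07 ± 0.29, the urea carrier Slc14a1 gave 0.23 ± 0.27 and Slc10a7 gave 0.27 ± 0.30 on the log2 scale.

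**Figure D5:**
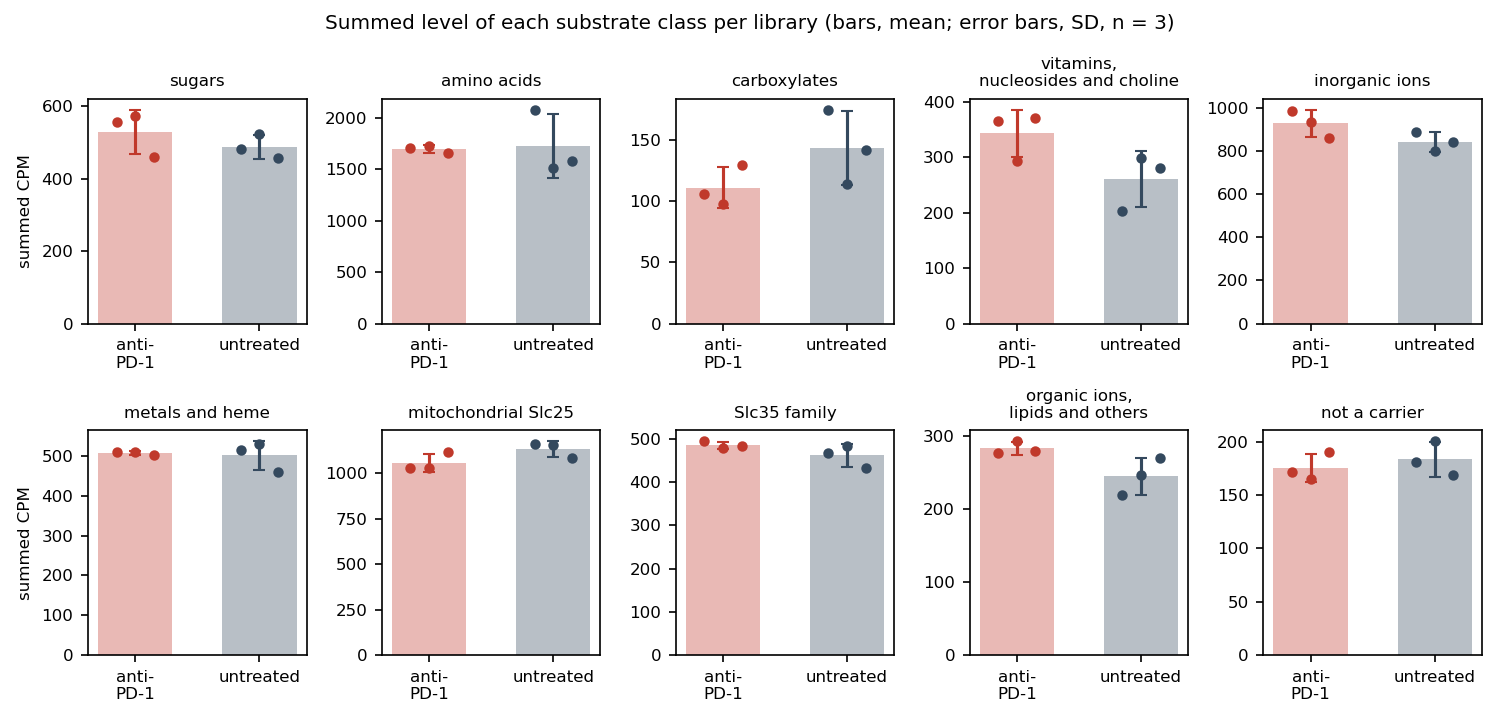
Summed TMM-scaled CPM of each substrate class in each library (points), with the mean (bars from 0) and SD (error bars, n = 3) of each group. The groups overlap in every class but that of organic ions, lipids and others, where the anti-PD-1 libraries lie between 276 and 293 CPM and the untreated libraries between 219 and 270 CPM.

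The name rule also took in 4 genes that are no carriers, 1 above 0 and 3 below. Slc9a3r1 (the scaffold NHERF1) had 115, 92.7 and 115 CPM in anti-PD-1 libraries, against 104, 142 and 95.7 CPM in untreated libraries. Slc4a1ap, an adaptor protein, gave a log2 fold change of 0.07 ± 0.25, Slc7a6os, named for its place opposite Slc7a6, gave -0.28 ± 0.33 and Slc2a4rg-ps, a pseudogene, gave -0.17 ± 0.67. Without them, 153 tested carriers had a median log2 fold change of 0.10.

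Partners and regulators of carriers were looked at as a list of 33 genes, of which 29 were tested. Of these, 11 were above 0 and 18 below, and none passed the adjusted test, with 3 higher and 2 lower at an unadjusted p under 0.05 (17.2% against 8.3% of all tested genes). Atp1b1, the β subunit of the sodium pump that builds the gradient used by sodium-coupled carriers, had 12.3, 18.0 and 35.9 CPM in anti-PD-1 libraries, against 6.10, 3.76 and 5.58 CPM in untreated libraries. All anti-PD-1 libraries lay above the untreated ones, with a log2 fold change of 2.07 ± 0.50 (adjusted p = 0.161, edgeR). Txnip, an arrestin-like protein that lowers glucose uptake by removing Slc2a1 from the surface, had 263, 278 and 166 CPM in anti-PD-1 libraries, against 94.2, 122 and 172 CPM in untreated libraries. They overlapped by 1 library each, and the log2 fold change was 0.87 ± 0.21 (adjusted p = 0.175, edgeR).

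Atf4, the factor that raises amino acid carriers when amino acids are short, averaged 137 ± 14.4 CPM after anti-PD-1 and 104 ± 15.9 CPM in untreated Tregs, a log2 fold change of 0.39 ± 0.18 (adjusted p = 0.580, edgeR). Wnk1, a kinase that controls the cation-chloride cotransporters, averaged 1383 ± 102 CPM after anti-PD-1 and 1688 ± 180 CPM in untreated Tregs, and Hif1a, which drives Slc2a1 under low oxygen, 1993 ± 265 CPM after anti-PD-1 and 2565 ± 213 CPM in untreated Tregs (SD, n = 3 each). Their log2 fold changes were -0.29 ± 0.14 and -0.36 ± 0.14 (adjusted p = 0.587 and 0.496, edgeR). Myc, which raises carriers in activated T cells, gave -0.22 ± 0.30, and Bsg, the chaperone of Slc16a1 and Slc16a3, gave -0.18 ± 0.27.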

How the data were processed

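RNA-seq was done on Tregs sorted from T11 tumors, in 6 libraries. Per the labels' protocols, tumors were dissociated enzymatically, lymphocytes were isolated at a gradient interface, and the library kit was NuGEN Ovation SoLo. The deposited file holds raw fragment counts, made by the authors with featureCounts 1.5.2 by strand (setting 1) on the UCSC mm10 annotation, per the file headers. Other tools in the submitters' processing notes are DESeq2, FastQC and bcl2fastq. The aligner's settings and how duplicate reads were treated are not given in the sources. 1 unnamed column of 6 values was not used.

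Total counts ran from 4766533 to 6686774 per library. edgeR 4.0.16 in R 4.3.3 was fitted on all genes passing filterByExpr (a count of 10, 15 in total; 10352 of 23420 genes), scaled by TMM, with robust glmQLFit, no replicate block and treatment as the only term; the test was two-sided with Benjamini-Hochberg adjustment over all tested genes. CPM are TMM-scaled, levels between genes are CPM per kb of the deposited gene length, errors of levels are SDs, and SEs and 95% intervals are of log2 fold changes. Substrate classes were assigned by family by hand, and Slc4a1ap was moved to the non-carriers after the table was seen. The members, classes and lists were chosen with earlier results of these data known. In each class the text names the 4 members with the highest level per kb, the 4 with the smallest p and a panel chosen by name, and of partners the 4 with the smallest p and 4 set by name. Mtf1, Mt1, Slc25a1, Slc25a14 and the members near the count threshold were named after their values were seen. Values of some members are not reported here. The scripts were tested on simulated data. Alternatives were DESeq2 1.42.0, limma-voom 3.58.1 with quality weights, other scalings and filters, an older quasi-likelihood dispersion (added after seeing the data) and each library left out.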

Additional observations from a re-analysis of the deposited data

How the results depend on the processing

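No paired analysis was possible because the anti-PD-1 and untreated libraries share no replicate number. No Slc member passed an adjusted p of 0.05 under any of the 13 alternatives, and the lowest adjusted p was 0.159, for Slc35d1 without untreated library 1. DESeq2 gave no adjusted p to 99 members. Over all genes, 3 passed with edgeR, 5 with upper-quartile scaling, 52 with no filter, 31 with DESeq2, 13 with limma-voom, and 1 to 19 with a library left out, the 19 without untreated library 1. Members at an unadjusted p under 0.05 numbered 10 with edgeR (6.37% of those tested, against 8.3% of all tested genes). With a count minimum of 50 they numbered 6 (5.36%, against 8.79% of all). With a library left out they numbered 5 to 16. The 5, without anti-PD-1 library 5, were 3.18%, against 5.22% of all. The 16, without untreated library 2, were 10.1%, against 9.03% of all. Among members with 600 or more counts they numbered 4, and the share of all genes at that count was not computed. The median log2 fold change became -0.0045 over all members, -0.0709 for metals and heme and -0.10 for mitochondrial Slc25 when members under 600 counts were left out. With a library left out it ran from -0.47 to -0.24 for carboxylates, from -0.0215 to 0.32 for inorganic ions, from -0.18 to 0.0313 for the non-carriers and from 0.0561 to 0.20 for the Slc35 family. The cause of these shifts was not tested.

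Of the 83 named members, 56 kept their sign under every alternative. Sign changes with all libraries in place were small. With limma-voom the log2 fold change came to 0.0805 for Slc38a2, -0.0178 for Slc3a2, 0.0296 for Slc1a5, 0.00238 for Slc38a1 and -0.0376 for Slc30a5. With upper-quartile scaling it came to 0.00594 for Slc1a5, 0.0319 for Slc38a1 and 0.0341 for Slc37a2. For Slc3a2 it was -0.00905 with the size factors of DESeq2, -0.00948 with no filter and -0.0133 with DESeq2. For Slc37a2 it was 0.00454 with DESeq2 and 0.014 with the older dispersion, and for Slc38a1 0.0145 with a count minimum of 50. With each library left out in turn, the sign changed at least once in 27 named members, and the lowest and highest log2 fold changes were Slc12a2 -0.37 to 0.29, Slc16a1 -0.68 to 0.12, Slc16a13 -0.54 to 1.40, Slc16a3 -0.38 to 0.15, Slc1a5 -0.13 to 0.13, Slc23a2 -0.00265 to 0.29, Slc25a36 -0.21 to 0.00611, Slc25a37 -0.11 to 0.44, and Slc25a39 -0.0517 to 0.38. In the next 9 they were Slc25a45 -0.0381 to 0.62, Slc25a5 -0.44 to 0.00557, Slc28a2 -0.0168 to 0.61, Slc2a4rg-ps -0.93 to 0.39, Slc30a5 -0.0819 to 0.19, Slc33a1 -0.33 to 0.0959, Slc37a2 -0.49 to 0.31, Slc38a1 -0.17 to 0.0742, and Slc38a2 -0.22 to 0.17. In the remaining 9 they were Slc39a10 -0.41 to 0.0696, Slc3a2 -0.0638 to 0.0834, Slc4a1ap -0.0535 to 0.19, Slc50a1 -0.29 to 0.11, Slc5a3 -0.11 to 0.27, Slc7a1 -0.14 to 0.22, Slc7a6 -0.61 to 0.077, Slc9a3r1 -0.19 to 0.11, and Slc9a9 -0.25 to 0.0398. Log2 fold changes were less precise in members under 600 counts, with a median SE of 0.52, against 0.25 in those with 600 or more.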
